A study of Mus musculus with 3 samples.

Results

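The heat shock genes described here were 10 genes taken by name, namely the heat shock transcription factor gene *Hsf1*, the cytosolic Hsp70 genes *Hspa1a*, *Hspa1b* and *Hspa8*, the Hsp110 gene *Hsph1*, the Hsp90 genes *Hsp90aa1* and *Hsp90ab1*, the small heat shock protein gene *Hspb1*, and the mitochondrial chaperonin genes *Hspd1* and *Hspe1*. They were 10 of the 22911 genes that could be named on the array, and 19 probes carried their RefSeq accessions. Colon26 is a murine colon adenocarcinoma line from a female BALB/c mouse, and LuM1 and NM11 are sublines of it, labelled as high-metastatic and low-metastatic, respectively. All 3 lines grew in RPMI1640 medium with serum and antibiotics for 3 days, and the labels name no heat shock, drug or genetic change. From each line, 0.1 µg of total RNA was labelled with Cy3 and put on 1 single-colour array, all 3 on 1 slide. With 1 array per line there was no replicate and no test, so a difference between lines cannot be told apart from a difference between cultures, labellings or arrays, and each error given after ± is the scanner software's own estimate for the spot.

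Heat shock proteins are chaperones that bind unfolded proteins and help them to fold, to be held soluble or to be passed on for degradation. When unfolded proteins accumulate, HSF1 forms trimers, binds repeats of the bases GAA and TTC in promoters and switches on the inducible members of the family, whereas constitutive members such as HSC70 (encoded by *Hspa8*) and HSP90β (encoded by *Hsp90ab1*) are made in unstressed cells as well. Cancer cells often hold high levels of these proteins, which serve many signalling proteins as folding partners, and inside mitochondria HSP60 and its lid HSP10 (encoded by *Hspd1* and *Hspe1*) fold imported proteins.

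A signal here is the background-corrected brightness of a probe after each array was scaled to the same 75th percentile of 585.1 (581.1, 625.1 and 551.5 as deposited for Colon26, LuM1 and NM11). In this order, the scanner software marked 49.9%, 53.8% and 52.5% of the probes well above background, and 0 spots were saturated. The lowest signal among those probes, which served as the bound for probes not well above background, was 26.4, 20.1 and 19.6, respectively. Of the epithelial markers, *Krt8*, *Krt20*, *Cdx2* and *Cldn7* were well above background on every array and *Epcam* on the LuM1 array alone, whereas *Cdh1*, *Krt18*, *Krt19*, *Vil1*, *Cdx1* and *Muc2* were not on any array. Of 7 mesenchymal markers, 6 were well above background in Colon26 cells and all 7 in LuM1 and NM11 cells. Among these, *Col1a2* read 59896 in Colon26 cells, 49.6 in LuM1 cells and 85275 in NM11 cells, and *Thy1* was at least 741-fold higher in LuM1 and at least 584-fold higher in NM11 than in Colon26 cells. The lines therefore showed a part of the epithelial list only, and differed widely in *Col1a2* and *Thy1*. The rest of the mesenchymal list, *Vim*, *Pdgfrb*, *Zeb1*, *Col1a1* and *Fn1*, differed by less. In this order, their log2 ratios by the brightest probes were -0.35, -0.04, -0.07, -1.13 and 1.26 for LuM1 over Colon26. For NM11 over Colon26 they were -0.05, -0.07, 0.48, 0.30 and 0.41, and for LuM1 over NM11 -0.30, 0.03, -0.56, -1.43 and 0.85. The pan-leukocyte marker *Ptprc* was not well above background on any array, whereas *Cd68*, *Cd3e* and *Itgam*, of 6 leukocyte markers, and *Pecam1*, of 4 endothelial markers, were on all 3. Their part in the values below was not tested.

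The promoters of 3 genes are shown because the genes behind them carried the differences described below, namely the region that *Hspe1* shares with *Hspd1*, the promoter of *Hspb1* and that of *Hspa1b*. Each line holds the 250 bases before the RefSeq start site in GRCm38.p6, at chr1:55087898-55088147 on the plus strand for *Hspe1*, chr5:135887669-135887918 on the plus strand for *Hspb1*, and chr17:34959239-34959488 on the minus strand for *Hspa1b*. Capitals mark every pair of heat shock repeats, searched as GAANNTTC or TTCNNGAA, each of which reads the same on both strands.
Hspe1: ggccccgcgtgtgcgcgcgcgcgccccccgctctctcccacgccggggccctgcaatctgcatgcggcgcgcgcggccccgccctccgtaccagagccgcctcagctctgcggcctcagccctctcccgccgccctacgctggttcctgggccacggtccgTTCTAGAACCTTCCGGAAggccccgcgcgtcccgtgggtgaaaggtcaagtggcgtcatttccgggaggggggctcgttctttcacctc
Hspb1: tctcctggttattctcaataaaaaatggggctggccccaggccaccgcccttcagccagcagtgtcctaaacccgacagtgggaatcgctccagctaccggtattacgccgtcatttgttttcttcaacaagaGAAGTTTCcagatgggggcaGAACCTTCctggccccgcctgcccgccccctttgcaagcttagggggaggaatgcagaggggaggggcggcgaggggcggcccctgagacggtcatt
Hspa1b: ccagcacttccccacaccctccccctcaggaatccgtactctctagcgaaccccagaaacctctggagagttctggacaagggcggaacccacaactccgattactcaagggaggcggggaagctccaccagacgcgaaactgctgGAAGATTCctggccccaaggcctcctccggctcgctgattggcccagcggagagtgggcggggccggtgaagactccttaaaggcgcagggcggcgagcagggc
The *Hspe1* window held 3 overlapping pairs, whose first bases lay between positions -89 and -79 from the start site. *Hspd1* lies head to head with *Hspe1*, and the start of *Hspd1* that was 216 bases away on the minus strand (window chr1:55087933-55088182) had the same run of letters, read from the other strand, with its pairs starting between -144 and -134, whereas the window of another *Hspd1* start, 95 bases inside *Hspe1*, held none. The *Hspb1* window held 2 separate pairs, the first bases of which lay at -117 and -97. The *Hspa1b* window held 1 pair at -104, as did that of *Hspa1a* (chr17:34972157-34972406), and both windows were identical at 247 of 250 positions (98.8%). The window of *Hsph1*, which encodes an Hsp110 protein, held 1 pair at -33 from the nearer of its start sites. Of 32851 promoter windows of this length in the RefSeq table, 12.8% held a pair and 0.466% held 3 alternating repeats in a row (GAA, TTC, GAA or TTC, GAA, TTC, with 2 bases between neighbours), a run that among the windows shown was found in that of *Hspe1*. Windows were matched for 6 of the 10 genes, not for *Hsf1*, *Hspa8*, *Hsp90aa1* and *Hsp90ab1*. A match of letters is a description and not evidence of binding.

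Across the lines, *Hspb1* stood well above background in LuM1 cells alone, *Hspa1b* was higher in both sublines than in Colon26 cells, and *Hspd1* and *Hspe1* were lowest in LuM1 cells and highest in NM11 cells. *Hsf1*, *Hspa8*, *Hsph1*, *Hsp90ab1* and the stress-inducible *Hsp90aa1* differed by less, with ranges over the lines of 0.21 to 0.61 on the log2 scale. This split depended on the scaling. After scaling to *Hprt*, the range of *Hsf1* (0.79) was above those of *Hspd1* (0.63) and *Hspe1* (0.46). Those of *Hsp90aa1* and *Hsp90ab1* (0.50 each) were then above that of *Hspe1*. The plot of probe signals gives every probe of the 10 genes, and the values follow by the role of the protein.

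**Figure D1:**
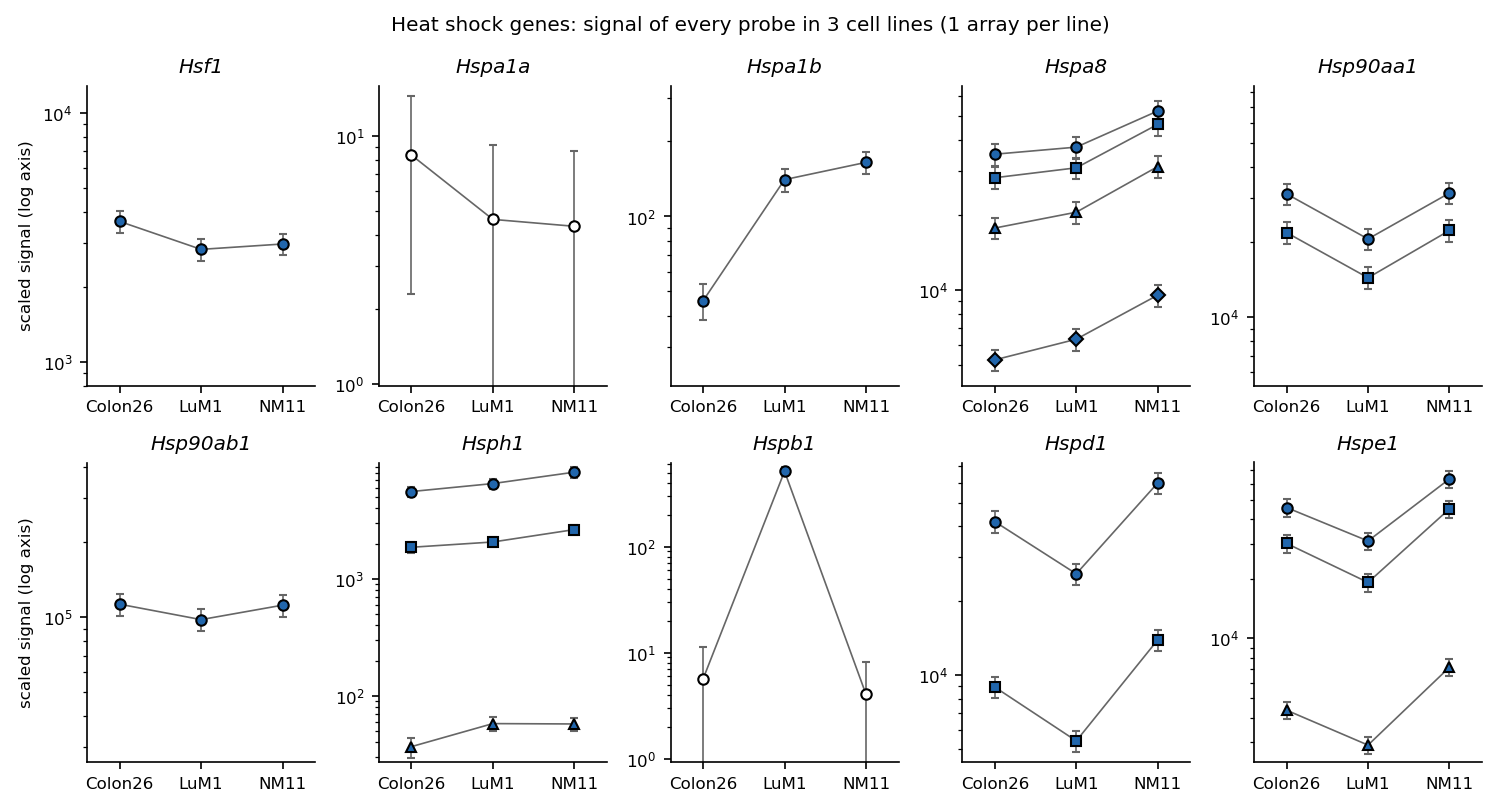
Scaled signal (arbitrary units, log axis) of each of the 19 probes of the 10 genes on the Colon26, LuM1 and NM11 arrays. Each marker shape is 1 probe, lines join the same probe, bars are the scanner error (a bar that reaches 0 leaves the panel at its lower edge), filled markers are well above background and open markers are not; *Hspb1* has a filled marker in LuM1 cells only, and the probes of *Hspd1* and *Hspe1* share a low point in LuM1 cells.

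*Hsf1* encodes the transcription factor that drives the heat shock response. Its signal was 3655 ± 366 in Colon26 cells, 2824 ± 282 in LuM1 cells and 2967 ± 297 in NM11 cells. Colon26 cells had the higher level, 1.29-fold above LuM1 cells (log2 ratio of LuM1 over Colon26 -0.37, with a scanner error of 0.20) and 1.23-fold above NM11 cells, and the first of these had the opposite sign (0.07) in the authors' processed values. LuM1 and NM11 cells differed by less than the scanner error (-0.07).

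The inducible Hsp70 proteins HSPA1A and HSPA1B are nearly the same protein, made by neighbouring genes on chromosome 17, and it was not tested which of the transcripts each probe binds. The *Hspa1a* probe read 8.38 ± 6.08 in Colon26 cells, 4.61 ± 4.62 in LuM1 cells and 4.32 ± 4.34 in NM11 cells, which nowhere reached the mark of well above background, and no ratio is given for it. The *Hspa1b* probe was well above background on all 3 arrays, at 45.9 ± 7.57 in Colon26 cells, 141 ± 14.8 in LuM1 cells and 165 ± 17.1 in NM11 cells. Both sublines thus lay above Colon26 cells by more than the scanner error, whereas LuM1 cells were 0.852-fold of NM11 cells (log2 ratio -0.23 with an error of 0.21), a direction that was opposite after scaling to *Hprt*, to the E1A spike-in controls and in the authors' processed values. The level of *Hspa1b* in LuM1 cells was 3.06-fold that in Colon26 cells (log2 ratio 1.61 with an error of 0.28), and the level in NM11 cells was 3.59-fold that in Colon26 cells (1.85 with an error of 0.28). Of the genes with a ratio, 7.78% were at least as high in LuM1 over Colon26 and 3.82% in NM11 over Colon26. The Colon26 signal was close to the lowest one well above background, and with a normexp background correction the log2 ratios were 0.78 and 0.95, under 2-fold.

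The range over the 3 lines was larger for *Hspa1b* (1.85 on the log2 scale) than for the other 7 heat shock genes well above background on every array (0.21 to 1.22), except after normexp, where it was 0.95 for *Hspa1b* and 1.27 for *Hspd1*. Its pattern was nearest to those of *Col6a1*, *Trim21*, *Ifi47*, *Palld* and *Vwa5a*, at Euclidean distances of 0.0296 to 0.136 between centred log2 signals over 3 arrays. For 40 of 12153 genes compared, the distance was no larger than 0.28, the scanner error of the log2 ratio of *Hspa1b* in LuM1 over Colon26. That error belongs to a single ratio and leaves out the errors of the other genes, so it is a rough yardstick for a distance over 3 arrays. With 3 arrays, patterns cannot be separated further.

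*Hspa8* encodes HSC70, the constitutive cytosolic Hsp70. Its brightest probe read 35009 ± 3501 in Colon26 cells, 37375 ± 3737 in LuM1 cells and 52200 ± 5220 in NM11 cells. NM11 cells were highest by all 4 probes, 1.49-fold to 1.82-fold above Colon26 cells and 1.40-fold to 1.52-fold above LuM1 cells, although the latter difference had the opposite sign after scaling to *Hprt* (log2 ratio of LuM1 over NM11 0.11). LuM1 over Colon26 lay between 0.09 and 0.28 (log2), which exceeded the scanner error for 2 of the 4 probes.

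*Hsph1* encodes HSP105, an Hsp110 protein that exchanges the nucleotide of Hsp70. Its brightest probe read 5568 ± 557 in Colon26 cells, 6514 ± 651 in LuM1 cells and 8148 ± 815 in NM11 cells. All 3 probes placed NM11 cells above Colon26 cells, by 1.42-fold to 1.56-fold. The 1.56-fold came from a dim probe, which read 36.8 in Colon26, 58.0 in LuM1 and 57.6 in NM11 cells. In LuM1 over NM11 the brightest and second probes gave log2 ratios of -0.32 and -0.35, and the dim probe gave 0.01, with a scanner error of 0.26. The difference by the brightest probe, -0.32, had the opposite sign after scaling to *Hprt* (0.27), to the spike-in controls and in the authors' processed values. The Euclidean distance of the patterns of *Hspa8* and *Hsph1* (0.120) was smaller than that of any other pair of the 8 genes.

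The cytosolic Hsp90 proteins hold kinases and steroid receptors in a state that can be activated. The brightest probe of *Hsp90aa1*, the stress-inducible form, read 31244 ± 3124 in Colon26 cells, 20598 ± 2060 in LuM1 cells and 31488 ± 3149 in NM11 cells. LuM1 cells were the lowest, with Colon26 cells 1.52-fold and NM11 cells 1.53-fold higher, and the second probe gave 1.52-fold and 1.55-fold. Colon26 and NM11 cells did not differ beyond the scanner error (log2 ratio of NM11 over Colon26 0.01), but this ratio was -0.48 after scaling to *Hprt*. The sign of the LuM1 differences was kept under each of 12 other settings, with LuM1 over NM11 reaching -0.02 after scaling to *Hprt*.

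The constitutive *Hsp90ab1* read 112705 ± 11271 in Colon26 cells, 97746 ± 9775 in LuM1 cells and 111708 ± 11171 in NM11 cells. It varied over the lines by 0.21 (log2), the smallest range among the 8 genes. That place was not kept after scaling to *Hprt* (0.50, beside 0.20 for *Hspa8*) or to the spike-in controls (0.34, beside 0.22 for *Hsph1*). Nor was it kept with the authors' processed values (0.24, beside 0.20 for *Hsp90aa1*). The lower level of *Hsp90ab1* in LuM1 than in Colon26 cells (log2 ratio -0.21 against an error of 0.20) had the opposite sign under quantile normalization (0.28) and with the authors' processed values. LuM1 over NM11 (-0.19) and NM11 over Colon26 (-0.01) were within the scanner error, but were 0.40 and -0.50, respectively, after scaling to *Hprt*.

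*Hspb1* encodes HSP27 (HSP25 in mice), a small heat shock protein that holds unfolded proteins soluble and acts on actin filaments. Its probe read 5.66 ± 5.68 in Colon26 cells, 514 ± 51.6 in LuM1 cells and 4.05 ± 4.06 in NM11 cells. It was well above background on the LuM1 array alone, and the deposited brightness of the spot after background subtraction alone, before any scaling, was -5.50 in Colon26, 577 in LuM1 and 0.40 in NM11 cells. LuM1 cells exceeded Colon26 cells at least 19.5-fold and NM11 cells at least 26.3-fold in their *Hspb1* level, taking the lowest signal well above background on each of the other arrays as the bound. Of the genes with a ratio, 1.53% (217 genes) were at least as high in LuM1 over Colon26 and 0.715% (103 genes) in LuM1 over NM11. LuM1 cells alone had 719 genes well above background, and *Hspb1* was among the 38 of them whose bounds against both lines were no smaller than its own. In each of 12 other settings *Hspb1* was more than 2-fold higher in LuM1 cells, with the lowest log2 ratios after normexp (2.86 over Colon26 and 2.92 over NM11). It was measured by 1 probe.

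*Hspd1* encodes HSP60, the barrel of the mitochondrial chaperonin. Its brightest probe read 41822 ± 4182 in Colon26 cells, 25711 ± 2571 in LuM1 cells and 60030 ± 6003 in NM11 cells. LuM1 cells were lowest and NM11 cells highest, and the second probe gave the same order, at 8934 ± 893, 5410 ± 541 and 13878 ± 1388, respectively. The level of *Hspd1* in NM11 cells was 2.33-fold to 2.56-fold that in LuM1 cells and 1.44-fold to 1.55-fold that in Colon26 cells, and Colon26 cells were 1.63-fold to 1.65-fold above LuM1 cells.

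*Hspe1* encodes HSP10, the lid of the same chaperonin. Its brightest probe read 45544 ± 4554 in Colon26 cells, 30924 ± 3092 in LuM1 cells and 63443 ± 6344 in NM11 cells. This was the order of the lines for *Hspd1* as well, and it held for all 3 probes. The level of *Hspe1* in NM11 cells was 2.05-fold to 2.46-fold that in LuM1 cells and 1.39-fold to 1.64-fold that in Colon26 cells, and Colon26 cells were 1.47-fold to 1.57-fold above LuM1 cells. The distance between the patterns of *Hspd1* and *Hspe1*, the genes with the shared promoter region shown above, was 0.138. Of the genes with a ratio of LuM1 over NM11, 94.2% were at least as high as *Hspd1* and 92.0% at least as high as *Hspe1*.

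The scaling bore on the size of these differences. The housekeeping gene *Hprt* itself read 11101 in Colon26, 10351 in LuM1 and 15573 in NM11 cells, with a log2 ratio of LuM1 over NM11 of -0.59, so scaling to it moved the median log2 ratio of all genes by 0.59 in LuM1 over NM11 and by -0.49 in NM11 over Colon26. After it, LuM1 over NM11 was -0.63 for *Hspd1* and -0.45 for *Hspe1*, and NM11 over Colon26 was 0.03 and -0.01, a change of sign for the latter. Relative to the median of all genes, a difference that no scaling by 1 factor per array can change, LuM1 over NM11 was -1.12 for *Hspd1* and -0.93 for *Hspe1*, and LuM1 over Colon26 was -0.57 and -0.43. On the same relative scale *Hspa1b* stood at 1.75 in LuM1 and 1.87 in NM11 over Colon26, *Hsp90aa1* at -0.47 in LuM1 over Colon26 and -0.51 in LuM1 over NM11, *Hspa8* at 0.60 and *Hsph1* at 0.57 in NM11 over Colon26, and *Hsf1* at -0.24 in LuM1 and -0.28 in NM11 over Colon26.

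**Figure D2:**
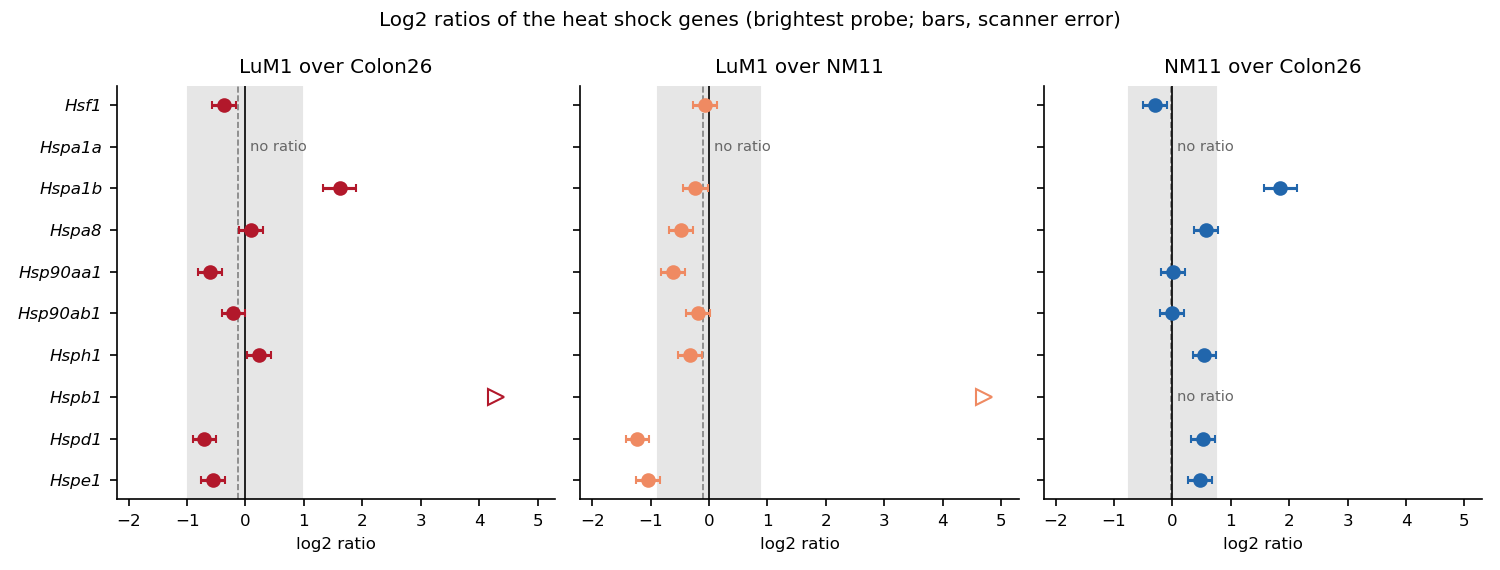
Log2 ratios of the 10 genes by their brightest probes in LuM1 over Colon26, LuM1 over NM11 and NM11 over Colon26, with the scanner error as bars, the middle 80% of all genes as a grey band and the median of all genes as a dashed line. Open triangles are lower bounds; *Hspb1* lies far to the right in both LuM1 comparisons, *Hspa1b* in both comparisons with Colon26, and *Hspd1* and *Hspe1* to the left of the band in LuM1 over NM11.

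For the comparison of the metastatic LuM1 line with Colon26, a ratio could be given for 9 of the 10 genes. In LuM1 cells, 2 of these, *Hspb1* and *Hspa1b*, were higher by 2-fold or more, where 13.1% of 14179 genes were, and 0 were lower by that much, where 11.8% were (2 of 9 apart in either direction, beside 24.9% of all genes). At 1.5-fold, 4 of 9 were apart, beside 45.6% of all genes. The median log2 ratio of the 8 genes measured in both lines was -0.29, beside -0.13 over 12394 genes, but 0.049 under quantile normalization and 0.16 with the authors' processed values, and 5 of the 8 lay below the median of all genes.

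In LuM1 over NM11, *Hspb1* alone of 9 genes was at least 2-fold higher, where 11.1% of 14408 genes were, and *Hspd1* and *Hspe1* were at least 2-fold lower, where 8.5% were (3 of 9 apart, beside 19.6%). At 1.5-fold, 4 of 9 were apart, beside 39.6%. All 8 measured genes had log2 ratios below 0, with a median of -0.40 beside -0.11 over 12848 genes, but this median was 0.19 after scaling to *Hprt*, and 7 of the 8 lay below the median of all genes. In NM11 over Colon26, *Hspa1b* alone of 8 genes was at least 2-fold higher, where 8.33% of 13830 genes were, and 0 were at least 2-fold lower, where 7.9% were (1 of 8 apart, beside 16.2%). At 1.5-fold, 1 of 8 was apart, beside 32.8%. Here the median was 0.50 beside -0.02 over 12469 genes, but 0.011 after scaling to *Hprt* and 0.17 with the spike-in controls, and 7 of the 8 lay above the median of all genes. A list of 8 or 9 genes chosen by name has no test here, and these shares are descriptions.

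The proteins act together with further chaperones and cochaperones, and 80 of 81 such genes on 9 lists were named on the array. At least 2-fold apart in LuM1 over Colon26 were 16 of 74, beside 24.9% of all genes, with 5 higher and 11 lower, a split that was 13 and 3 with the authors' processed values. In LuM1 over NM11 they were 9 of 73, beside 19.6%, with 3 higher and 6 lower, a split that was 9 and 0 after scaling to *Hprt*. In NM11 over Colon26 they were 8 of 73, beside 16.2%, with 6 higher and 2 lower, and scaling to *Hprt* gave 2 and 13. Their median log2 ratios were -0.43, -0.34 and -0.06, and 45 of 71, 48 of 72 and 36 of 71 measured genes lay below the median of all genes, respectively.

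**Figure D3:**
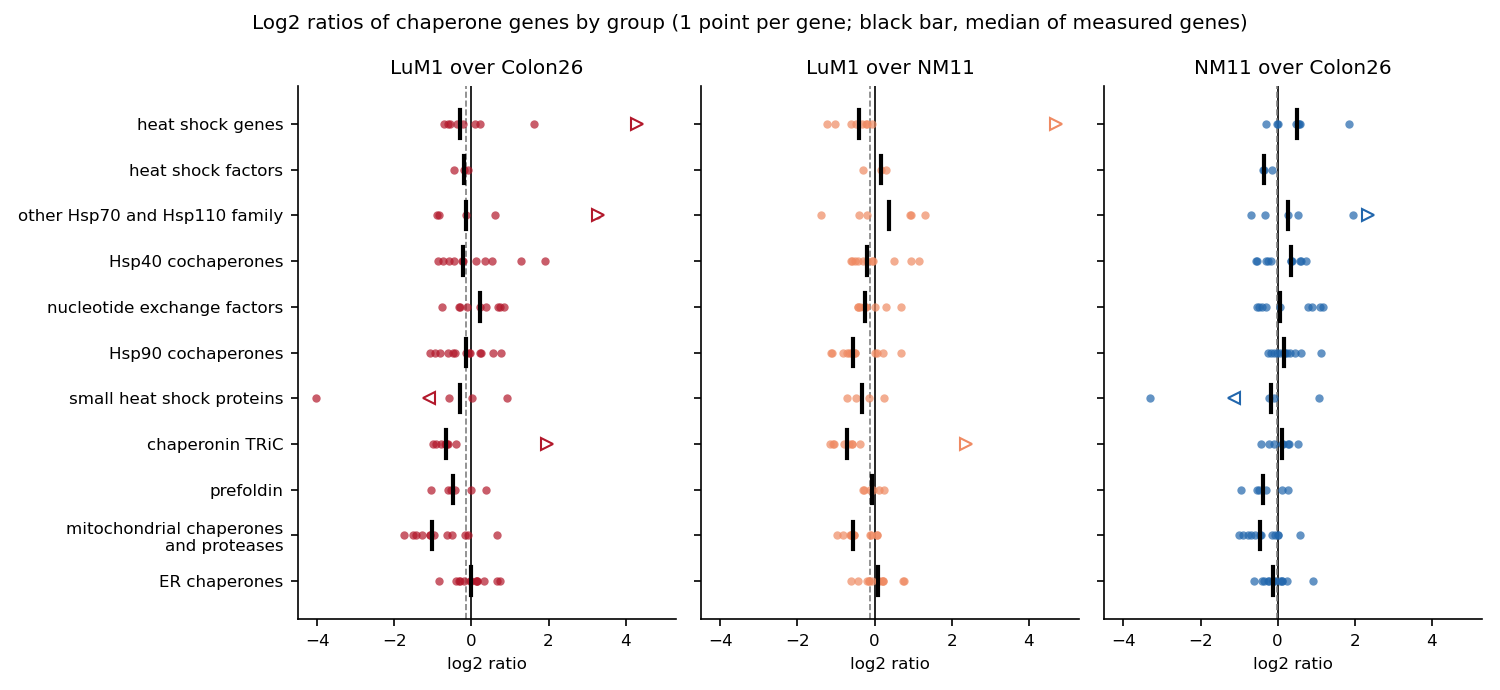
Log2 ratio of each gene by its brightest probe, in rows for the 10 heat shock genes, the 9 lists of other chaperone genes and the endoplasmic reticulum (ER) chaperones. Black bars are the medians of genes measured in both lines, triangles are bounds and the dashed line is the median of all genes; the mitochondrial row (median -1.02 in LuM1 over Colon26) and the TRiC row (median -0.73 in LuM1 over NM11) lie to the left.

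HSP60 and HSP10 work beside other chaperones and proteases of the mitochondrion. Of 12 such genes, 6 were lower by 2-fold or more in LuM1 relative to Colon26 cells, where 11.8% of all genes were, 11 of 12 log2 ratios were below 0 (median -1.02) and 10 lay below the median of all genes. *Hspa9*, which encodes the mitochondrial Hsp70, read 44378 in Colon26 cells, 13185 in LuM1 cells and 25880 in NM11 cells, with Colon26 cells 3.37-fold above LuM1 cells. *Clpp*, a matrix protease subunit, read 13987, 4878 and 7464, respectively (2.87-fold). *Dnaja3*, the mitochondrial Hsp40, read 7736, 2873 and 5106, respectively (2.69-fold). These 3 genes differed from *Hspd1* and *Hspe1* in that NM11 cells lay between LuM1 and Colon26 cells. *Trap1*, the mitochondrial Hsp90, was 2.45-fold, and the proteases *Htra2* and *Lonp1* were 2.12-fold and 2.11-fold higher in Colon26 than in LuM1 cells. In LuM1 over NM11, 0 of the 12 genes were 2-fold apart, beside 19.6% of all genes (median -0.56). *Hspa9* and *Clpp* were at least 2-fold apart in LuM1 over Colon26 under all 8 other ways of scaling or background correction, *Trap1* and *Dnaja3* under 7, and *Lonp1* and *Htra2* under 4.

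The chaperonin TRiC folds actin and tubulin in the cytosol. All 8 of its measured subunit genes had log2 ratios below 0 in LuM1 over Colon26 (median -0.67) and in LuM1 over NM11 (median -0.73), and all 8 lay below the median of all genes in both comparisons, although the sign turned for *Tcp1* and *Cct6a* in LuM1 over NM11 after scaling to *Hprt*, and for *Cct6a* there and *Cct5* in LuM1 over Colon26 with the authors' processed values. Under quantile normalization 7 of the 8 lay below the median of all genes. *Cct3* read 14504 in Colon26 cells, 9319 in LuM1 cells and 20905 in NM11 cells, which placed NM11 cells 2.24-fold above LuM1 cells, the order of the lines seen for *Hspd1*. *Cct4* and *Cct2* were 2.12-fold and 2.08-fold higher in NM11 than in LuM1 cells, and *Tcp1* read 22406 in Colon26 and 11183 in LuM1 cells, just past 2-fold. The 2-fold differences of *Cct2*, *Cct3* and *Cct4* in LuM1 over NM11 were found under 3 of the 8 other scalings or corrections, and that of *Tcp1* in LuM1 over Colon26 under 2. *Cct6b*, a subunit known from testis, was well above background in LuM1 cells alone (102, beside 6.14 in Colon26 and 18.2 in NM11 cells), at least 3.86-fold above Colon26 and at least 5.21-fold above NM11 cells. Both differences were 2-fold or more under 7 of the 8 other scalings or corrections, and the lowest log2 ratios were 0.82 and 0.72, respectively. Of 6 genes of prefoldin, which hands actin and tubulin to TRiC, *Pfdn6* alone was 2-fold apart (2.08-fold higher in Colon26 than in LuM1 cells, and 2-fold or more under 4 of the 8 other scalings or corrections).

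Among other Hsp70 and Hsp110 genes, *Hspa4*, an Hsp110 gene like *Hsph1*, read 25264 in Colon26 cells, 14016 in LuM1 cells and 36603 in NM11 cells. NM11 cells were 2.61-fold above LuM1 cells, and at least 2-fold so under 6 of the 8 other scalings or corrections. *Hspa12b*, a distant Hsp70 relative known from endothelium, read 319, 3050 and 1236, respectively, so that LuM1 cells were 9.55-fold and NM11 cells 3.87-fold above Colon26 cells, and LuM1 cells 2.47-fold above NM11 cells. *Hspa2*, known from testis, was not well above background in Colon26 cells (25.1) and read 256 in LuM1 and 134 in NM11 cells, at least 9.71-fold and at least 5.09-fold higher. Both were thus higher in the sublines, as *Hspa1b* was.

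Hsp40 proteins bring substrates to Hsp70, and nucleotide exchange factors release them. *Dnaja4*, an Hsp40 gene, read 256 in Colon26 cells, 956 in LuM1 cells and 428 in NM11 cells, which placed LuM1 cells 3.73-fold above Colon26 and 2.23-fold above NM11 cells. The level of *Dnajb4* in LuM1 cells was 2.45-fold that in Colon26 cells. By their brightest probes, the remaining 9 of 11 Hsp40 genes were less than 2-fold apart there. Other probes of *Dnajb6* and *Dnajc5* passed 2-fold in LuM1 over Colon26, with log2 ratios reaching 1.18 and -1.04, respectively. *Bag3*, a nucleotide exchange factor that also links Hsp70 to autophagy, read 3308, 5902 and 7099, respectively, or 2.15-fold above Colon26 cells in NM11 and 1.78-fold in LuM1 cells. *Bag2* was 2.26-fold higher in NM11 than in Colon26 cells, and both genes were higher in each subline than in Colon26 cells, as *Hspa1b* was. The 2-fold differences of *Bag2* and *Bag3* in NM11 over Colon26 were found under 6 of the 8 other scalings or corrections.

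Of 13 cochaperones of Hsp90, *Ptges3* (p23) and *Ppid* were 2.19-fold and 2.16-fold higher in NM11 than in LuM1 cells. Both differences were 2-fold or more under 3 of the 8 other scalings or corrections. *Fkbp4* was 2.11-fold higher in Colon26 than in LuM1 cells (2-fold or more under 4 of the 8). *Ppp5c* was 2.19-fold higher in NM11 than in Colon26 cells (under 6 of the 8). The median log2 ratio of the 13 genes in LuM1 over NM11 was -0.57, beside -0.61 for *Hsp90aa1*, -0.19 for *Hsp90ab1* and -0.11 over all genes. Of the 13, 9 lay below the median of all genes, and 7 had log2 ratios above 0 after scaling to *Hprt*.

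Other small heat shock protein genes had other patterns than *Hspb1*. *Cryab*, which encodes αB-crystallin, read 4540 in Colon26 cells, 279 in LuM1 cells and 457 in NM11 cells, so that Colon26 cells were 16.2-fold above LuM1 cells. *Hspb2*, a neighbour of *Cryab* on chromosome 9, was well above background in Colon26 cells (43.2) but not in LuM1 (5.73) or NM11 cells (9.90), at least 2.15-fold and at least 2.21-fold lower. These differences were 2-fold or more under 5 and 7 of the 8 other scalings or corrections, respectively. *Hspb8*, a partner of BAG3, read 985 in Colon26, 1862 in LuM1 and 2054 in NM11 cells. It was 2.08-fold higher in NM11 than in Colon26 cells (2-fold or more under 5 of the 8). Of the 8 genes listed, 5 had a ratio in LuM1 over Colon26 and 4 in LuM1 over NM11, and 0 of these passed 2-fold in favour of LuM1 cells, although *Hspb8* did so over Colon26 cells under 4 of the 8 other scalings or corrections. Of the heat shock factor list, 3 genes other than *Hsf1* had a ratio and none was 2-fold apart. *Hsbp1*, which encodes a binding partner of HSF1, was 1.37-fold higher in Colon26 than in LuM1 cells.

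**Figure D4:**
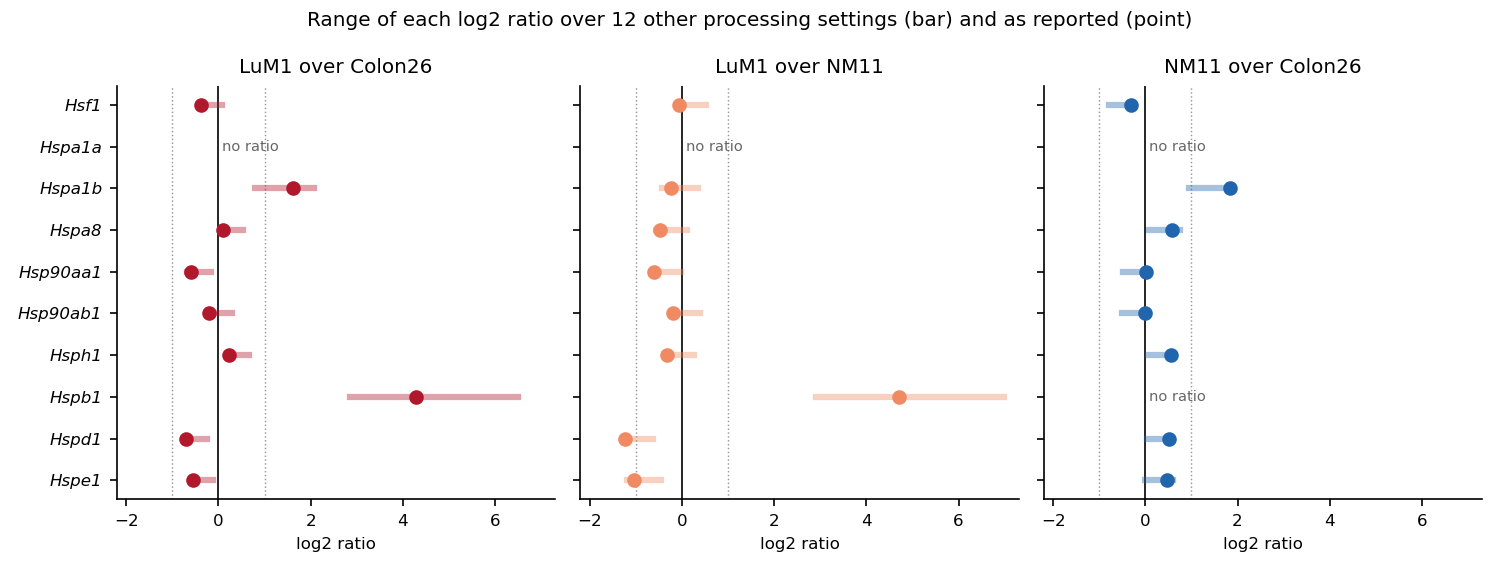
Log2 ratio of each of the 10 genes as reported (point) and its range over 12 other ways of processing (bar), with dotted lines at 2-fold. The bars of *Hspb1* stay to the right of 2-fold in both LuM1 comparisons, those of *Hspd1* and *Hspe1* cross the 2-fold line in LuM1 over NM11, and those of *Hsf1*, *Hsp90ab1*, *Hsp90aa1*, *Hspa1b*, *Hspa8*, *Hsph1* and *Hspe1* reach across 0 in at least 1 comparison.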

How the data were processed

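Gene expression was measured in Colon26, LuM1 and NM11 cells, with 1 single-colour SurePrint G3 Mouse array per line, and samples were grouped by the line in their labels. The authors deposited spot intensity values made with Feature Extraction 11.5.1.1, in linear units, after background subtraction and detrending within an array and with no scaling across arrays, and with flags of 0 or 1 per spot (score) for outliers, saturation and background. The authors also deposited a table of processed intensity values, each the scanner value multiplied by a constant of its array (0.654, 0.829 and 0.706 for Colon26, LuM1 and NM11, with column medians of 22.6, 35.4 and 22.2). Its scale is linear, and the rule behind the factors is not given in the sources used here.

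Control spots and outlier spots (137, 74 and 99, none of them of a heat shock gene) were left out of the probe values, and repeated spots were averaged. The arrays were brought to a common 75th percentile, taken over all spots other than controls, with outlier spots and each repeated spot included. A probe not well above background on 1 of the arrays gave a bound, and one below on both gave none. Of 56605 probes, 32994 (58.3%) matched a RefSeq accession of GRCm38.p6, which named 22911 genes. Ratios were taken on the log2 scale from the brightest probe of a gene, and at least 2-fold counted as apart. No test was run, since 1 array per line has no replicate check, and precision is limited by the number of arrays.

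The 10 genes, the chaperone lists and the markers were chosen with earlier results of these data known. The genes named were all 10, every gene of a chaperone list at least 2-fold apart in any comparison or, in lists with none, the one with the largest measured ratio of LuM1 over Colon26, *Hprt*, and the 5 genes nearest in pattern to the heat shock gene with the widest range. Alternatives were scaling by the E1A spike-in controls, by *Hprt*, by the median over probes well above background or not at all, quantile normalization, normexp with an offset of 50 (run on the median brightness), the authors' processed values, a looser and no detection rule, a 1.5-fold threshold, the mean over probes, and the brightest LuM1 probe. The percentile over distinct probes was added after seeing the data. Promoter sequences came from RefSeq (GRCm38.p6), whereas the array was designed on an older build, and no probe coordinates are given. The code that makes the 2-fold calls was checked on simulated data, which bears on the code alone. The tools were R 4.3.3 (limma 3.58.1) and Python 3.11.15 (pandas 2.3.3, numpy 2.4.6, matplotlib 3.10.9, scipy 1.17.1).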

Additional observations from a re-analysis of the deposited data

Results flagged for a closer look

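LuM1 and NM11 cells lay on opposite sides of Colon26 cells, beyond the scanner error, for 6 of the heat shock and other chaperone genes named. All 6 were at least 2-fold apart between the sublines, and the share of all genes with this pattern was not counted. For *Hspd1*, LuM1 over Colon26 was -0.70 and NM11 over Colon26 0.52, with -1.22 for LuM1 over NM11 (log2 ratios). *Hspe1* stood at -0.56 and 0.48, with -1.04 between the sublines. For the Hsp110 gene *Hspa4* the values were -0.85, 0.53 and -1.38, for the Hsp90 cochaperone gene *Ptges3* -0.82, 0.31 and -1.13, and for the TRiC subunit genes *Cct3* and *Cct4* -0.64, 0.53 and -1.17, and -0.78, 0.30 and -1.08. The difference between the sublines was not tested, since each had 1 array. After scaling to *Hprt*, NM11 over Colon26 was within the scanner error of 0.20 for all 6, at 0.03 for *Hspd1*, -0.01 for *Hspe1*, 0.05 for *Hspa4*, -0.17 for *Ptges3*, 0.04 for *Cct3* and -0.19 for *Cct4*. The pattern was not particular to these 6. Among listed genes under 2-fold, LuM1 and NM11 over Colon26 were -0.40 and 0.27 for *Cct5*, and -0.47 and 0.24 for *Chordc1*. They were -0.23 and 0.37 for *Dnajb2*, -0.23 and 0.35 for *Dnajc7*, and, the other way, 0.60 and -0.34 for *Hspa13*.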

How the results depend on the processing

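No paired analysis was possible because each cell line had 1 array, and for the same reason no array could be left out. The median log2 ratio of the heat shock genes moved by more than the scanner error in LuM1 over Colon26 (-0.29) to 0.049 under quantile normalization and 0.16 with the authors' processed values, in LuM1 over NM11 (-0.40) to 0.19 after scaling to *Hprt*, -0.076 with the spike-in controls and 0.011 in the authors' processed values, and in NM11 over Colon26 (0.50) to 0.011 with *Hprt*, 0.17 with the spike-in controls and 0.24 without a filter on dim probes. The number of heat shock genes at least 2-fold apart in LuM1 over Colon26 (2) was 1 after normexp and 4 at 1.5-fold. In LuM1 over NM11 (3) it was 1, *Hspb1*, with the authors' processed values, under quantile normalization, and after scaling to *Hprt* or the spike-in controls. In NM11 over Colon26 (1) it was 0 after normexp, where *Hspa1b* stood at 0.95. The other chaperone genes apart numbered 40 at 1.5-fold in place of 16 in LuM1 over Colon26, 30 in place of 9 in LuM1 over NM11, and 21 in place of 8 in NM11 over Colon26, where scaling to *Hprt* gave 15 (2 higher and 13 lower). With spike-in scaling that comparison had 2 higher and 8 lower. Their split by direction in LuM1 over Colon26 (5 higher and 11 lower) was 6 and 5 without scaling, 6 and 6 with *Hprt*, 7 and 6 under quantile normalization and 13 and 3 with the authors' processed values. In LuM1 over NM11 (3 higher and 6 lower) it was 9 and 0 with *Hprt*, 8 and 1 with the spike-in controls, 8 and 0 with the authors' processed values, 6 and 1 without scaling and 5 and 1 under quantile normalization. The cause of these shifts was not tested beyond the shift of the median of all genes, which in LuM1 over Colon26 was 0.45 in the authors' processed values and in LuM1 over NM11 was 0.59 with *Hprt*, 0.41 in the authors' processed values and 0.33 with the spike-in controls. Signal over background limits *Hspa1a*, which had no ratio, the bounds of *Hspb1* and the Colon26 level of *Hspa1b*.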

Other observations

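The chaperones of the endoplasmic reticulum serve secreted and membrane proteins and answer to the unfolded protein response rather than to HSF1. All 13 genes on their list had a ratio in every comparison. By their brightest probes, 0 of 13 were at least 2-fold apart in any of them. Of all genes, 24.9%, 19.6% and 16.2% were so in LuM1 over Colon26, LuM1 over NM11 and NM11 over Colon26, respectively. Another probe of *Canx* passed 2-fold, with log2 ratios of 1.01 in LuM1 over Colon26 and 1.14 in NM11 over Colon26. By the brightest probes, the median log2 ratios of the 13 genes were -0.02 in LuM1 over Colon26, 0.09 in LuM1 over NM11 and -0.11 in NM11 over Colon26. Their ranges were -0.83 to 0.75, -0.61 to 0.77 and -0.60 to 0.90, respectively. *Hspa5*, which encodes BiP, the Hsp70 of this compartment, had the log2 ratio of LuM1 over Colon26 farthest from 0 on the list, with signals of 57950 in Colon26 cells, 32576 in LuM1 cells and 49780 in NM11 cells, so that Colon26 cells were 1.78-fold above LuM1 cells.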
